A study of Mus musculus with 12 samples.

Results

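The 10 genes described here, Dazl, Ddx4, Mael, Stra8, Sohlh2, Taf7l, Sycp1, Sycp3, Hormad1 and Tuba3a, are genes of germ cells and meiosis. They were taken by symbol from the 52550 gene identifiers of each count table, after the identifiers, stripped of their version, were matched to GENCODE mouse release M21. Each of the 10 has 1 row in every table.

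The study profiled poly(A) RNA of mouse embryonic stem (ES) cells in 12 libraries, 2 for each of 6 groups. Unmodified ES cells were grown either in serum with the cytokine LIF (serum/LIF) or in 2iL, which is LIF with an inhibitor of the kinase MEK and inhibition of the kinase GSK3. ES cells labelled as GSK3 knockout were grown in serum/LIF. Each of these 3 settings was treated with the solvent DMSO or with 100 nM JQ1, an inhibitor of the BET bromodomain proteins, and harvested 60 h after treatment. Serum/LIF cells had been kept on mitotically blocked mouse fibroblast feeders and were split onto gelatin for the experiment, whereas 2iL cells were kept on gelatin. Medium and feeder history therefore changed together and cannot be told apart. The labels do not say which GSK3 gene is deleted, whether the knockout is 1 clone, or whether the 2 libraries of a group come from separate cultures, so a p-value here speaks to how far these libraries scatter, and that scatter could be purely technical.

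Primordial germ cells switch on a programme of RNA-binding proteins, transposon-silencing factors and meiotic chromosome proteins that most somatic tissues and pluripotent cells keep largely silent. In ES cells many of these genes are known to be held down by DNA methylation of CpG-rich promoters and by PRC1.6, a Polycomb complex that contains the E-box-binding pair MGA and MAX and the repressor E2F6. JQ1 displaces BET proteins from acetylated chromatin and, in the testis, is known to bind the germ-cell BET protein BRDT.

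The promoters of 6 of the genes are printed because they show how unlike each other the starts of these genes are. Each is the 250 bases before the RefSeq start on GRCm38.p6, read 5′ to 3′ on the strand of the gene. Capitals mark the E-box CACGTG, which is its own reverse complement, and GCGGGAA or its reverse complement TTCCCGC, a sequence of the type bound by E2F6; no 2 matches overlapped. Hormad1 (chr3:95559427-95559676, plus strand), Sycp3 (chr10:88459337-88459586, plus strand) and Sycp1 (chr3:102936101-102936350, minus strand) hold an E-box. Tuba3a (chr6:125286082-125286331, minus strand) holds only the E2F6-type sequence, and Sohlh2 (chr3:55181794-55182043, plus strand) and Dazl (chr17:50293621-50293870, minus strand) hold neither.
Hormad1: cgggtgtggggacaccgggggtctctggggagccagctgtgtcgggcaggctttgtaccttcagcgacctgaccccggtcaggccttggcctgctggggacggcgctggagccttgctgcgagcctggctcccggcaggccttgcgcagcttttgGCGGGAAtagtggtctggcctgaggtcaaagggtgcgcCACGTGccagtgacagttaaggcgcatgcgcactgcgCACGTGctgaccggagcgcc
Sycp3: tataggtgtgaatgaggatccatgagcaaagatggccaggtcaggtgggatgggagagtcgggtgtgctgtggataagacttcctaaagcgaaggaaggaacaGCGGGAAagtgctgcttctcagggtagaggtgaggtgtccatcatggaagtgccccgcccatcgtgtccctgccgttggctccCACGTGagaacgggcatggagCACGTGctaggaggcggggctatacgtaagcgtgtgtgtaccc
Sycp1: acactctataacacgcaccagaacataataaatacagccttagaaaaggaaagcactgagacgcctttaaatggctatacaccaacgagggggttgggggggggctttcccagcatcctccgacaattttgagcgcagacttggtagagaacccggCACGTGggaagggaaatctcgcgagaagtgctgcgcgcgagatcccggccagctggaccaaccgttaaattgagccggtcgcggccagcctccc
Tuba3a: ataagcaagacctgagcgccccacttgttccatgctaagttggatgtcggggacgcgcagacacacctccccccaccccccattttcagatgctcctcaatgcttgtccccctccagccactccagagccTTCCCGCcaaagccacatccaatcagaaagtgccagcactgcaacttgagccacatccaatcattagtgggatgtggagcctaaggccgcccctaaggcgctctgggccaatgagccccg
Sohlh2: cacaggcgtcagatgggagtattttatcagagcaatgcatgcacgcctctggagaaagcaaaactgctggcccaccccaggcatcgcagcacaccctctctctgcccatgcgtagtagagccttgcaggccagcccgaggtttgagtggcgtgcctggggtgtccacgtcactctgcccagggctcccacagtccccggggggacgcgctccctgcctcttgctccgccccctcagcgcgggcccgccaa
Dazl: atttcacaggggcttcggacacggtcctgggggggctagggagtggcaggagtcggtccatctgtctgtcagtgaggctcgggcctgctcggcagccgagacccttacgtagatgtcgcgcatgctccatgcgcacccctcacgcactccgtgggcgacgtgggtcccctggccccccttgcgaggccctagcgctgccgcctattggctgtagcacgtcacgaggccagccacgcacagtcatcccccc

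Over all 10 genes, CACGTG occurred in 6 of these windows, against 6.02% of 32851 RefSeq promoter windows of the same length. Sycp3 and Hormad1 each held 2 copies, and Mael, Ddx4, Taf7l and Sycp1 held 1. GCGGGAA or TTCCCGC occurred in 4 windows, those of Sycp3, Hormad1, Tuba3a and Ddx4, against 3.82% of all windows. CCAAT or its reverse complement ATTGG, also scanned, occurred in 5 windows, against 33.8% of all windows. CpG dinucleotides numbered from 5 in Stra8 to 31 in Ddx4, with a median of 15.5 over the 10 genes and 6 over all windows. The RefSeq and GENCODE starts of these genes differ. The Stra8 window (chr6:34920698-34920947) lies inside the GENCODE gene, and the Ddx4 window (chr13:112652311-112652560) runs into it. Some other windows run into their gene by fewer bases. These motifs were chosen after the windows had been read, and a match is a description of the letters, not of a bound site.

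Library depth ranged from 17869865 to 48723436 expected counts, and the deepest library, serum/LIF with DMSO replicate 1, stood apart from the next at 29882439. Levels below are expected counts scaled to the library total (CPM), and 16987 genes passed the low-count filter. All 10 genes were tested, but Stra8 reached the filter's minimum of 0.490 CPM in both libraries of only 3 groups (both 2iL groups and knockout with DMSO) and Taf7l only in the 3 DMSO groups. Hormad1 did not reach it in both unmodified serum/LIF libraries with JQ1, nor Sohlh2 in both knockout libraries with JQ1. Gsk3a, with 77.4 and 65.4 CPM in unmodified serum/LIF cells, read 24.5 and 23.0 CPM in knockout cells (log2 fold change −1.56 ± 0.13 SE), so its transcript was reduced and not lost, and Gsk3b differed by −0.65 ± 0.13. Among the spermatid markers Prm1 and Tnp1 had 0 counts in all 12 libraries, and the 8 spermatid markers summed to at most 0.606 CPM. ES cell markers summed to 1896 and 2444 CPM in serum/LIF with DMSO, 1275 and 2013 with JQ1, 3481 to 3887 in the knockout and 4415 to 4835 in 2iL. Fibroblast markers summed to 846 and 835 CPM in serum/LIF with DMSO, 365 and 355 with JQ1, 280 and 435 in knockout with DMSO, 194 and 145 with JQ1, and 7.00 to 16.8 in the 4 2iL libraries. Markers of the rare 2-cell-like state summed to 13.2 to 59.3 CPM in unmodified cells with DMSO and to at most 1.03 CPM in the other 8 libraries. Markers of Sertoli and Leydig cells, the somatic cells of the testis, summed to 11.9 to 33.2 CPM. The part of these other cell types in the results was not tested, and in bulk RNA fewer cells of a type and less RNA per cell cannot be told apart.

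With DMSO, 5 of the 10 genes were much higher in 2iL than in serum/LIF, and 0 were lower (0 at an unadjusted p under 0.05 in edgeR, and 0 with DESeq2). In that comparison 28.3% of all tested genes were higher and 26.5% were lower, 54.8% in all. The 5 include Stra8, which met the filter's minimum in 2iL and not in serum/LIF. The 5 genes come from different steps of germ cell life: Dazl, an RNA-binding protein needed for germ cell development, Stra8, the retinoic-acid-responsive factor of meiotic entry, Sohlh2, a basic helix-loop-helix factor of spermatogonia and early oocytes, Hormad1, a protein of unsynapsed meiotic chromosome axes, and Tuba3a, an alpha-tubulin made mainly in the testis. In the same comparison 6 of 8 ES cell markers were higher and 2 lower, and all 10 tested fibroblast markers were lower.

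Tuba3a (chr6:125278274-125286042, GRCm38, minus strand) read 2.36 and 3.65 CPM in serum/LIF with DMSO and 281 and 242 CPM in 2iL with DMSO. The log2 fold change was 6.45 ± 0.19 (SE), with an adjusted p of 2.4e-10. The 2iL libraries lay far above every serum/LIF library, treated or not. Of the 150-base windows of its transcripts, 2.65% occur also in its relative Tuba3b, which read 8.48 and 5.29 CPM in 2iL with DMSO and at most 0.103 CPM in the other DMSO libraries.

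Dazl (chr17:50279395-50293636, minus strand) read 2.40 and 2.26 CPM in serum/LIF and 98.7 and 65.6 CPM in 2iL, a log2 fold change of 5.06 ± 0.21 (adjusted p = 2.4e-09). Sohlh2 (chr3:55182028-55209957, plus strand) read 2.09 and 3.70 CPM against 90.3 and 78.6 CPM, a log2 fold change of 4.88 ± 0.25 (adjusted p = 7.3e-09). Hormad1 (chr3:95559677-95587671, plus strand) read 2.05 and 3.08 CPM against 45.2 and 43.6 CPM, a log2 fold change of 4.10 ± 0.26 (adjusted p = 4.6e-08). The serum/LIF and 2iL libraries of these 3 genes did not overlap, and how many of all tested genes separate in this way was not counted. For Sohlh2 and Hormad1 the gap was many times the spread within a group. The 2iL libraries of Dazl were further apart, at 98.7 and 65.6 CPM. In Hormad1, 6.54% of the windows are shared with another annotated gene, Gm15529.

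Stra8 (chr6:34920163-34939344, plus strand) was almost unread in serum/LIF, with 3 and 4 counts in the 2 DMSO libraries (0.0616 and 0.205 CPM), and read 46.0 and 21.1 CPM in 2iL with DMSO. The ratio of the group counts scaled by depth was 329, with a 95% exact interval from 159 to 819 that covers counting error only. Its fitted log2 fold change, 8.19 ± 0.54 (adjusted p = 3.1e-07), rests on those 7 serum/LIF counts.

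The other 5 genes were not called between 2iL and serum/LIF. Sycp3, which builds the axial and lateral elements of the synaptonemal complex, read 10.8 and 15.9 CPM in serum/LIF and 17.5 and 15.6 CPM in 2iL (log2 fold change 0.26 ± 0.32). Sycp1, the transverse filament of the same complex, read 6.32 and 6.73 against 6.42 and 11.7 CPM (0.41 ± 0.27). The 2 libraries of 2iL differ more for Sycp1 than the group means do. Mael, a component of germ granules that acts in piRNA-directed transposon silencing, read 4.97 and 6.68 against 6.37 and 4.26 CPM (−0.18 ± 0.31). Ddx4, the mouse vasa RNA helicase, read 12.7 and 13.3 against 10.5 and 11.1 CPM (−0.33 ± 0.16, adjusted p = 0.10). Taf7l, the germ-cell relative of the TFIID subunit Taf7, read 1.03 and 0.925 against 2.54 and 1.22 CPM (0.87 ± 0.51). All 5 have CACGTG in the promoter window, whereas of the 5 genes that were higher in 2iL only Hormad1 has it. This split was seen after the calls were known and carries no test. Leaving out 2iL replicate 1 with DMSO made Sycp1 a call (adjusted p = 0.039).

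**Figure D1:**
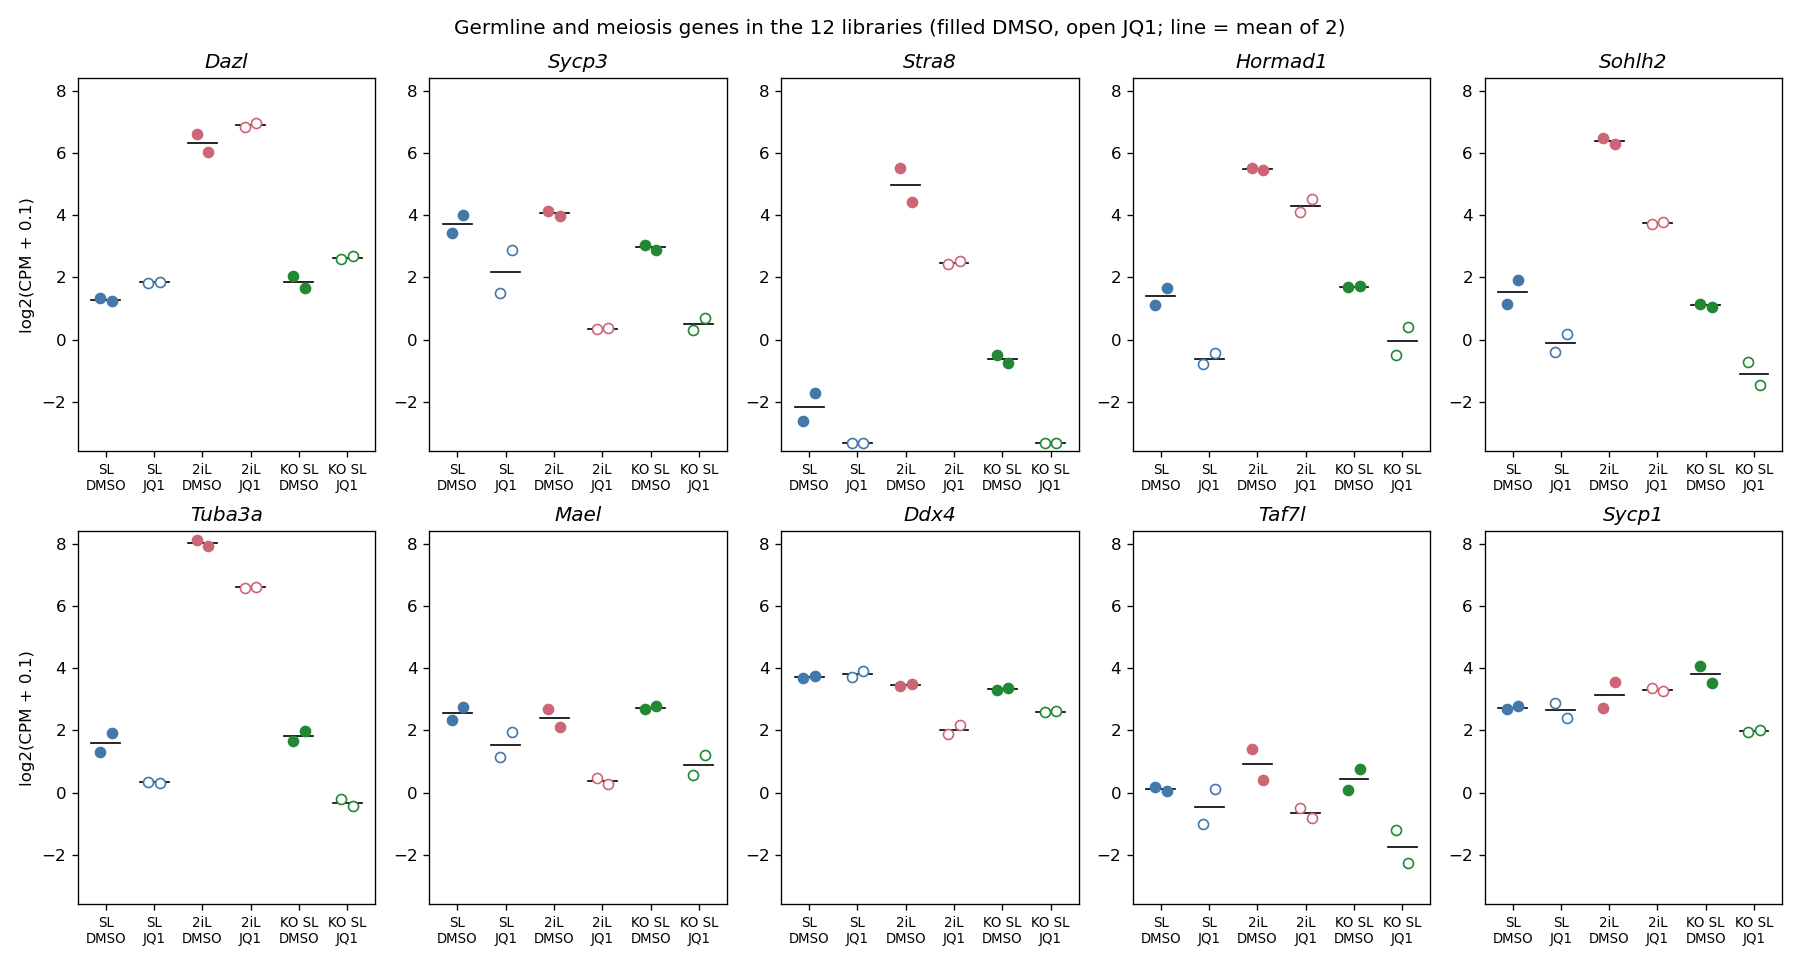
Level of each gene in each library, as log2(CPM + 0.1) on the vertical axis, for the 6 groups on the horizontal axis (KO SL is GSK3 knockout in serum/LIF). Filled points are DMSO, open points are JQ1 and each line is the mean of the 2 log values; Tuba3a, Dazl, Sohlh2, Stra8 and Hormad1 rise to their highest values in 2iL, while Mael, Ddx4 and Sycp1 do not.

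Knockout cells had levels of these 5 genes far nearer to those of unmodified serum/LIF cells than to those of 2iL cells. Between knockout and unmodified cells in serum/LIF with DMSO, 2 of the 10 genes were higher and 0 were lower (1 at an unadjusted p under 0.05 in edgeR, and 0 with DESeq2). Of all tested genes 18.9% were higher and 21.0% were lower, 40.0% in all. The 2 include Stra8, which met the filter's minimum in the knockout with DMSO and not in unmodified serum/LIF cells. Sycp1 was higher in the knockout, with 16.9 and 11.5 CPM against 6.32 and 6.73 CPM (log2 fold change 1.15 ± 0.27, adjusted p = 0.0045). Both knockout libraries lay above every other library of Sycp1 except 2iL with DMSO replicate 2, at 11.7 CPM. Without knockout DMSO replicate 1 the Sycp1 call was lost (adjusted p = 0.067). Stra8 read 12 and 9 counts in the knockout (0.603 and 0.496 CPM), a depth-scaled count ratio of 5.37 (95% exact interval 2.20 to 15.0, counting error only). The fit called Stra8 higher at an adjusted p of 0.036, but not without serum/LIF DMSO replicate 1 (0.33) or without either knockout DMSO library (0.15 and 0.078), and at 0.050 it just missed the threshold without either 2iL JQ1 library.

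The remaining 8 genes kept their log2 fold change between −0.75 and 0.63 in that comparison. Dazl read 4.02 and 3.08 CPM in the knockout, above both unmodified serum/LIF libraries (0.63 ± 0.24, adjusted p = 0.053). That value passed 0.05 when either 2iL DMSO library was left out (0.015 and 0.014), although neither belongs to the comparison. Sycp3 read 8.16 and 7.29 CPM, below both unmodified libraries (−0.75 ± 0.33, adjusted p = 0.087), and was called without either JQ1-treated serum/LIF library (0.013 and 0.012). Sohlh2 was called without unmodified DMSO replicate 1 (0.041) and Tuba3a without replicate 2 (0.048). For Tuba3a the knockout libraries read 3.06 and 3.80 CPM, next to 281 and 242 CPM in 2iL.

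Set directly against unmodified cells in 2iL, knockout cells had 6 of the 10 genes lower and 1 higher, where 22.0% of all tested genes were lower and 21.3% were higher, 43.3% in all. The knockout and 2iL groups differ in genotype, medium and feeder history at once. Tuba3a (−6.16 ± 0.19), Stra8 (−5.83 ± 0.46), Sohlh2 (−5.27 ± 0.26), Dazl (−4.43 ± 0.21) and Hormad1 (−3.72 ± 0.26) were lower in the knockout, with adjusted p-values from 4.4e-10 to 3.5e-06. The sixth, Sycp3, was lower by less (−1.01 ± 0.33, adjusted p = 0.025). It was not called without 2iL DMSO replicate 1 (0.11) or either knockout DMSO library (0.081 and 0.12). Sycp1 was higher (0.74 ± 0.27, adjusted p = 0.041), and this call was lost in 6 of the 12 fits that left out 1 library, with the largest adjusted p, 0.33, without knockout DMSO replicate 1 and 0.28 without 2iL DMSO replicate 1. These 3 comparisons of medium and genotype share libraries with each other and with the JQ1 comparisons, and are not independent.

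**Figure D2:**
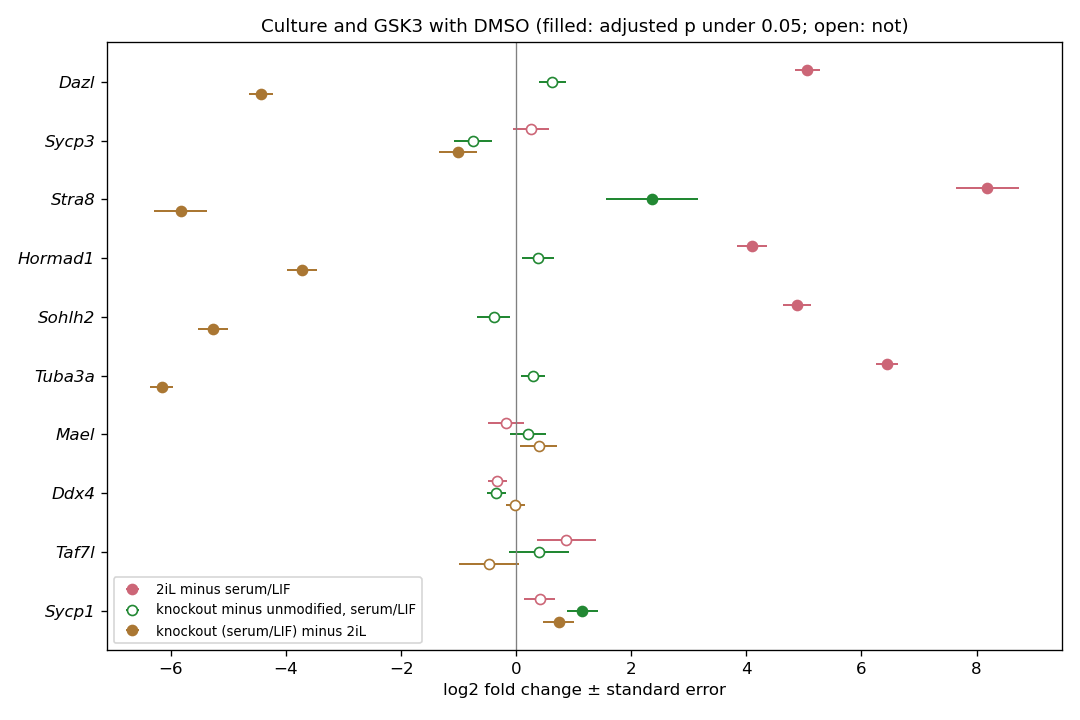
Log2 fold change with its standard error on the horizontal axis for each gene, from edgeR, in DMSO-treated cells: 2iL minus serum/LIF, knockout minus unmodified in serum/LIF, and knockout minus 2iL. Filled points passed adjusted p 0.05. The 2iL points of Dazl, Stra8, Hormad1, Sohlh2 and Tuba3a lie between 4.10 and 8.19, while the knockout minus unmodified points of 9 genes lie between −0.75 and 1.15, with Stra8 at 2.36.

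On the length-scaled TPM the authors deposited, the summed level of the 10 genes was 34.0 and 42.7 TPM in serum/LIF with DMSO, 492 and 414 TPM in 2iL and 36.5 and 33.4 TPM in the knockout. Tuba3a was the most abundant of the 10 transcripts in all 4 2iL libraries, at 47.9% to 56.2% of the sum. In serum/LIF and knockout cells with DMSO the most abundant was Sycp3, at 14.5 and 20.0 TPM in the unmodified cells. JQ1 libraries summed to 19.3 and 26.9 TPM in serum/LIF, 194 and 206 TPM in 2iL and 11.1 and 12.3 TPM in the knockout. In each of the 3 settings both JQ1 sums lay below both DMSO sums, and both JQ1 sums in 2iL stayed above every sum outside 2iL.

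**Figure D3:**
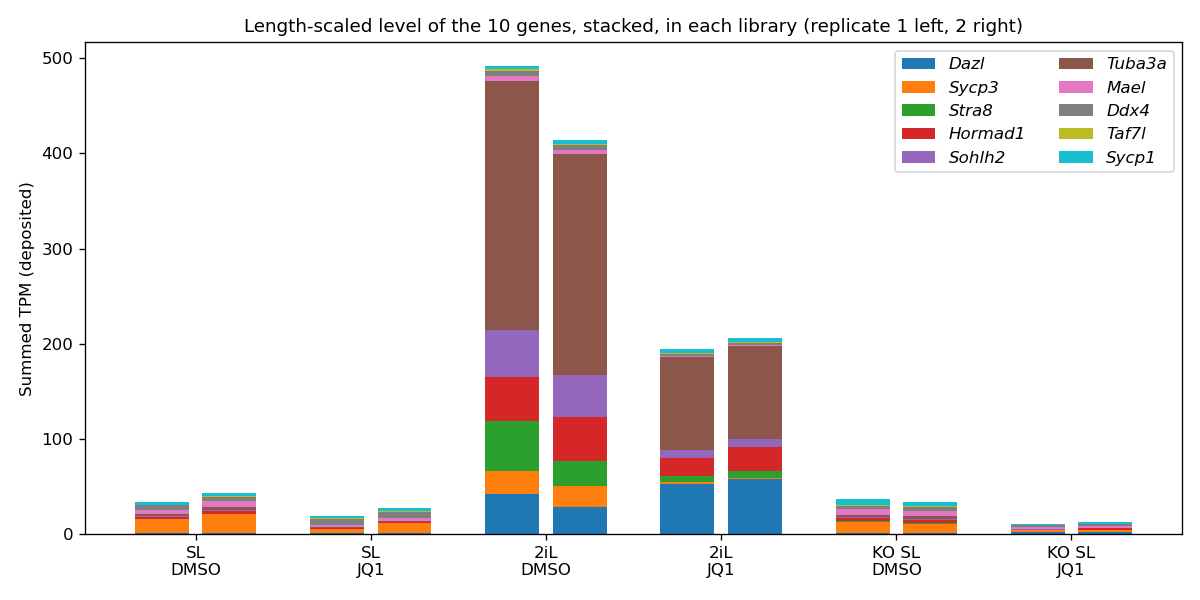
Summed TPM of the 10 genes (vertical axis) in each of the 12 libraries, stacked by gene, with replicate 1 on the left of each pair. The 2iL bars with DMSO reach 492 and 414 TPM, mostly Tuba3a, and the JQ1 bars of every setting are shorter than their DMSO bars.

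With JQ1 most calls among the 10 genes were decreases. In serum/LIF 5 were lower and 0 higher (1 higher at an unadjusted p under 0.05 in edgeR, and 0 with DESeq2), where 12.8% of all tested genes were lower and 8.54% higher, 21.3% in all. In 2iL 8 were lower and 1 higher, where 17.3% of all tested genes were lower and 11.2% higher, 28.5% in all. In the knockout 9 were lower and 1 higher, where 19.5% of all tested genes were lower and 14.6% higher, 34.1% in all. The knockout count includes Stra8, Taf7l and Sohlh2, which met the filter's minimum in both libraries only of the DMSO group there. The same holds for Taf7l in 2iL and for Hormad1 in serum/LIF. These calls therefore set a group that met the minimum against a group partly or wholly under it. The filter was run once over all 12 libraries, and each of these genes met it in other groups too. Taf7l met it only in the 3 DMSO groups, so it entered the test through groups where it was high. The median log2 fold change of the 10 genes, with Stra8 set at its count floor in the knockout and left out in serum/LIF, was −1.0 in serum/LIF, −1.52 in 2iL and −1.97 in the knockout. Over all tested genes the medians were −0.02, −0.06 and −0.06. Sycp3, Hormad1, Sohlh2, Tuba3a and Mael were called lower in all 3 settings. The share of all tested genes lower in all 3 was not counted, but it cannot exceed the 12.8% lower in serum/LIF. The serum/LIF calls of Mael and Sycp3 and the 2iL call of Hormad1 were each lost in some alternative fit. In serum/LIF and the knockout the summed fibroblast markers were lower with JQ1 as well, with 9 and 8 of 10 tested markers lower, and in 2iL 4 of 10 were lower, from a sum of at most 16.8 CPM to 9.29 and 7.00 CPM. ES cell markers had 5 of 8 lower with JQ1 in serum/LIF, and 1 lower and 1 higher in 2iL and in the knockout.

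Among the meiotic chromosome genes, Sycp3 (chr10:88459569-88473236, plus strand) with JQ1 read 2.72 and 7.22 CPM in serum/LIF, 1.17 and 1.18 CPM in 2iL and 1.14 and 1.5 CPM in the knockout. JQ1 and DMSO libraries did not overlap in any setting, and the serum/LIF pair was the most spread. The log2 fold changes were −1.43 ± 0.34 (adjusted p = 0.010), −3.70 ± 0.40 (4.3e-05) and −2.54 ± 0.39 (0.00047). Without serum/LIF DMSO replicate 2 the call in that medium did not pass (0.078). The difference between the 2iL and serum/LIF responses was −2.27 ± 0.52 (adjusted p = 0.028), one of 2 such calls among the 10 genes, where 2.80% of all tested genes had a more negative response in 2iL and 1.35% a more positive one, 4.16% in all. It did not pass in the fit of only these 4 groups (0.064), nor without serum/LIF DMSO replicate 1 (0.089), serum/LIF JQ1 replicate 2 (0.077), 2iL DMSO replicate 1 (0.066) or 2iL JQ1 replicate 1 (0.10) or 2 (0.12). Sycp3 lies within Chpt1, a phospholipid enzyme gene on the opposite strand (chr10:88452745-88504073), and 29.3% of its 150-base windows occur in Chpt1 transcripts. The strand setting of the authors' counting is not given in the sources used here, so reads of the pair cannot be told apart there. Chpt1 itself read 28.2 and 25.7 CPM in 2iL with DMSO and 25.2 and 27.6 CPM with JQ1, and was not called in any JQ1 comparison. With DMSO it was higher in 2iL (1.26 ± 0.22) and in the knockout (1.06 ± 0.22) than in unmodified serum/LIF cells, and its part in the Sycp3 values was not tested.

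Hormad1 with JQ1 read 0.480 and 0.637 CPM in serum/LIF, 17.0 and 22.7 CPM in 2iL and 0.602 and 1.21 CPM in the knockout, where DMSO had read 3.11 and 3.19 CPM. The log2 fold changes were −2.15 ± 0.36 (adjusted p = 0.0015), −1.06 ± 0.22 (0.0036) and −1.83 ± 0.33 (0.0013). The treated 2iL libraries still lay above every serum/LIF and knockout library. The 2iL call was lost without 2iL JQ1 replicate 1 (adjusted p = 0.056). The responses in 2iL and serum/LIF were not called different (1.09 ± 0.43, adjusted p = 0.21).

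Sycp1 (chr3:102818499-102936100, minus strand) answered JQ1 in the knockout alone of the 3 tests. It read 3.75 and 3.90 CPM with JQ1, against 16.9 and 11.5 CPM with DMSO (−1.85 ± 0.29, adjusted p = 0.00044). In serum/LIF it read 7.33 and 5.20 CPM (−0.06 ± 0.28) and in 2iL 10.1 and 9.46 CPM (0.21 ± 0.27), within the range of the DMSO libraries or overlapping it. The difference between the knockout and unmodified responses in serum/LIF was −1.80 ± 0.40 (adjusted p = 0.025), the 1 such call among the 10 genes, where 3.12% of all tested genes had a more negative response in the knockout and 1.25% a more positive one, 4.37% in all. That call was lost without 6 of the 8 libraries involved: either serum/LIF DMSO library (0.083 and 0.054), serum/LIF JQ1 replicate 1 (0.091), knockout DMSO replicate 1 (0.12) and either knockout JQ1 library (0.10 and 0.081).

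**Figure D4:**
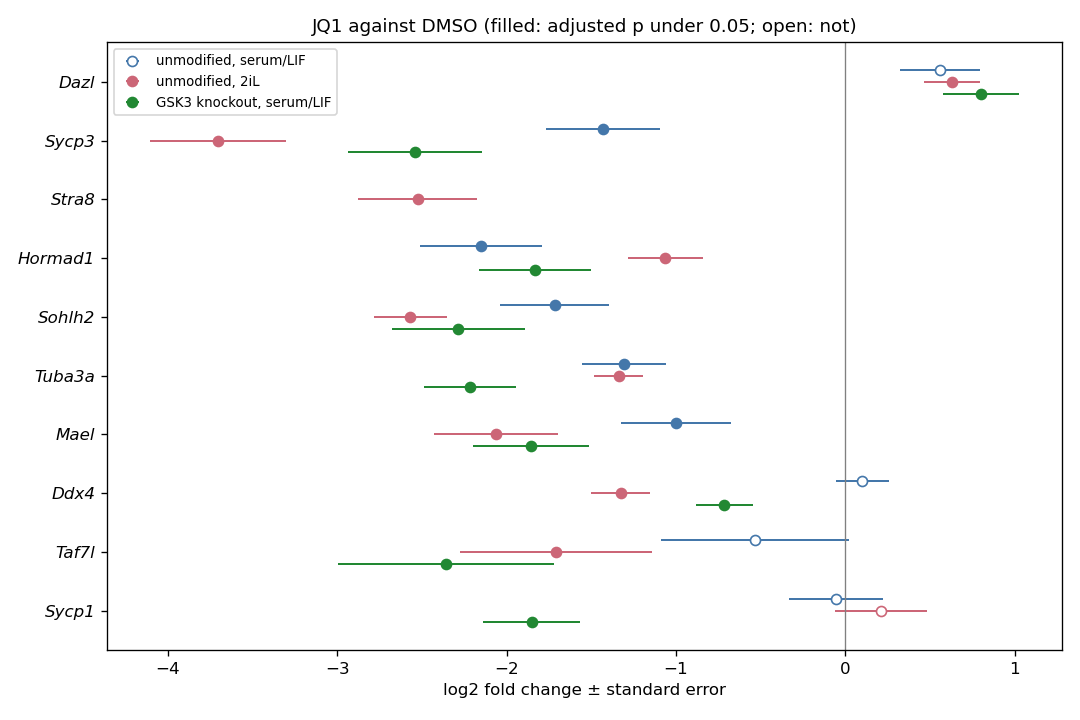
Log2 fold change of JQ1 against DMSO with its standard error (horizontal axis) for each gene in serum/LIF, 2iL and the GSK3 knockout, from edgeR. Filled points passed adjusted p 0.05. Stra8 is drawn only for 2iL because both JQ1 libraries of the other settings had 0 counts; Dazl alone lies to the right of 0 in every setting, from 0.56 to 0.80, and Sycp3 in 2iL lies farthest left at −3.70.

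Of the germ cell transcription factors, Sohlh2 with JQ1 read 0.654 and 1.03 CPM in serum/LIF, 13.0 and 13.6 CPM in 2iL and 0.502 and 0.264 CPM in the knockout (DMSO 2.11 and 1.98 CPM). The log2 fold changes were −1.72 ± 0.32 (adjusted p = 0.0029), −2.57 ± 0.21 (7.7e-06) and −2.29 ± 0.39 (0.00093). These calls were not lost in any alternative fit, but knockout JQ1 replicate 2 (0.264 CPM) lay under the filter's minimum of 0.490 CPM. Stra8 with JQ1 had 0 counts in both serum/LIF and both knockout libraries, and read 5.32 and 5.60 CPM in 2iL (−2.52 ± 0.35, adjusted p = 0.00048). Against a floor of 3 counts per library it was at least 4.25-fold lower in the knockout. The fit called it lower there (adjusted p = 0.0081), but not without knockout JQ1 replicate 1 (0.057). In serum/LIF no fold is given, because the DMSO mean of 0.134 CPM (3 and 4 counts) lay no higher than the mean JQ1 floor of 0.139 CPM. Taf7l (chrX:134460118-134476490, minus strand) read 0.954 and 1.6 CPM in the knockout with DMSO and 0.335 and 0.106 CPM with JQ1 (−2.36 ± 0.64, adjusted p = 0.013). In 2iL it read 0.616 and 0.467 CPM with JQ1 (−1.71 ± 0.57, adjusted p = 0.039), and in serum/LIF 0.393 and 0.981 CPM (−0.54 ± 0.56). The knockout call was lost without DMSO replicate 2 (0.090) or JQ1 replicate 2 (0.093). The 2iL call was lost with DESeq2 (0.054) and without either serum/LIF DMSO library (0.053 each), 2iL DMSO replicate 1 (0.30) or 2iL JQ1 replicate 1 (0.11) or 2 (0.20). Taf7, the broadly expressed relative of Taf7l, was not called in any JQ1 comparison (log2 fold changes 0.21, −0.08 and 0.25).

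The RNA-binding and germ granule genes divided. Mael (chr1:166201201-166238747, minus strand) with JQ1 read 2.09 and 3.73 CPM in serum/LIF, 1.29 and 1.10 CPM in 2iL and 1.37 and 2.22 CPM in the knockout, where DMSO had read 6.33 and 6.78 CPM. Its log2 fold changes were −1.0 ± 0.33 (adjusted p = 0.045), −2.06 ± 0.37 (0.0014) and −1.86 ± 0.34 (0.0015). All 3 pairs of groups were separate, but the serum/LIF call was lost in 7 of the 12 fits that left out 1 library, with the largest adjusted p, 0.27, without serum/LIF JQ1 replicate 1 and 0.22 without serum/LIF DMSO replicate 2. It was lost too when only these 2 groups were fitted (0.073).

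Ddx4 (chr13:112598333-112652475, minus strand) with JQ1 read 12.9 and 15.0 CPM in serum/LIF, 3.58 and 4.41 CPM in 2iL and 5.89 and 6.01 CPM in the knockout (DMSO 9.79 and 10.2 CPM). The serum/LIF libraries overlapped those with DMSO (0.10 ± 0.16, adjusted p = 0.69), while the others were lower by −1.33 ± 0.17 (0.00017) and −0.71 ± 0.17 (0.0063). The difference between the 2iL and serum/LIF responses was −1.43 ± 0.24 (adjusted p = 0.0048), and this call was kept in all alternative fits, with adjusted p-values up to 0.030. The difference between the knockout and unmodified responses was −0.81 ± 0.23 (adjusted p = 0.065). Ddx4 was not called lower in the knockout without knockout JQ1 replicate 1 (0.056).

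Dazl went the other way. With JQ1 it read 3.40 and 3.53 CPM in serum/LIF, 114 and 124 CPM in 2iL and 5.86 and 6.28 CPM in the knockout, in each setting above both DMSO libraries. It rose in 2iL (0.63 ± 0.17, adjusted p = 0.014) and in the knockout (0.80 ± 0.22, 0.015). In serum/LIF its log2 fold change was 0.56 ± 0.24 (adjusted p = 0.11), and it passed without either 2iL DMSO library (0.032 and 0.031) or without the low-count filter (0.042). The 2iL call was lost without DMSO replicate 2 (0.083) or JQ1 replicate 2 (0.094), and the knockout call without DMSO replicate 2 (0.11) or JQ1 replicate 2 (0.074). Neither test called the Dazl response different from that of unmodified serum/LIF cells (0.07 ± 0.29 for 2iL minus serum/LIF and 0.24 ± 0.33 for knockout minus unmodified). The 2iL and knockout responses were not tested against each other.

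Tuba3a with JQ1 read 1.18 and 1.13 CPM in serum/LIF, 95.9 and 97.6 CPM in 2iL and 0.770 and 0.633 CPM in the knockout. The log2 fold changes were −1.31 ± 0.25 (adjusted p = 0.0031), −1.34 ± 0.15 (4.5e-05) and −2.22 ± 0.27 (8.6e-05), and none was lost in an alternative fit. The difference between the 2iL and serum/LIF responses was −0.03 ± 0.34, at a level that differed by 6.45 on the log2 scale with DMSO. Tuba3b moved with it in 2iL, from 8.48 and 5.29 to 1.85 and 1.53 CPM (−1.94 ± 0.45, adjusted p = 0.0077).

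The wider set of germ cell genes outside these 10 holds 68 symbols in 5 lists, of which 53 genes were tested. With JQ1, 15 were lower and 1 higher in serum/LIF, 23 lower and 4 higher in 2iL, and 13 lower and 3 higher in the knockout. As shares of the 53 genes the lower calls were 28.3%, 43.4% and 24.5%, against 12.8%, 17.3% and 19.5% of all tested genes, so the share in the knockout was near that of all genes. The medians, with genes of 0 counts at their floor, were −0.70, −1.04 and −0.56. The piRNA and germ granule list had 6, 9 and 7 of 16 tested genes lower, and the meiotic recombination list 2, 3 and 0 of 10. The synaptonemal complex and axis list had 3, 4 and 3 of 12 lower, the transcription and RNA regulator list 1, 4 and 1 of 8, and the primordial germ cell list 3, 3 and 2 of 7, with 0, 3 and 2 higher.

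Hormad2, which like Hormad1 marks unsynapsed axes, was lower in all 3 settings, with 1.07 and 1.18 CPM falling to 0 and 2 counts in serum/LIF, and fitted log2 fold changes of −3.25 ± 0.38 in 2iL and −3.78 ± 0.44 in the knockout. Tdrd9, a helicase of the piRNA pathway, was called lower in all 3, with 0 counts in both JQ1 libraries of serum/LIF and of the knockout and 4 to 16 counts in their DMSO libraries. Piwil4, a PIWI protein, fell in 2iL from 3.16 and 1.76 CPM to 0.112 and 0.0424 CPM. Prdm14, a transcription factor of primordial germ cells and naive pluripotency, fell in serum/LIF from 2.22 and 4.73 to 0.131 and 0.245 CPM (−4.09 ± 0.56), while in 2iL it read 75.4 and 70.9 CPM with DMSO and 64.9 and 73.5 CPM with JQ1; the difference of these responses was 4.11 on the log2 scale. In the knockout Prdm14 fell too, from 7.53 and 12.4 to 1.31 and 1.74 CPM (−2.70 ± 0.34). Tfap2c, another primordial germ cell factor, rose with JQ1 in 2iL (0.92 ± 0.22) and in the knockout (1.74 ± 0.23), as did Dppa3 in 2iL (2.03 ± 0.39). Meioc, which acts with Ythdc2 in meiotic progression, rose in serum/LIF (1.14 ± 0.21).

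Between 2iL and serum/LIF, 27 of the 53 wider genes were higher and 7 lower (50.9% and 13.2%, against 28.3% and 26.5% of all tested genes), with a median of 0.89 against 0.04 over all tested genes. The synaptonemal complex and axis list had 8 of 12 higher and the piRNA list 8 of 16 higher and 4 lower. The primordial germ cell list had 4 of 7 higher, the transcription and RNA regulators 4 of 8 and the recombination list 3 of 10, a share at the level of all tested genes. Rec114, a factor of meiotic double-strand break formation, read 0.568 and 1.03 CPM in serum/LIF and 23.1 and 23.6 CPM in 2iL (4.91 ± 0.38). The tudor-domain gene Tdrd5 went down from 16.3 and 12.5 to 0.671 and 0.196 CPM (−5.10 ± 0.38), as did Tdrd7 (−3.99 ± 0.39) and Tdrd1 (−3.39 ± 0.37). The knockout had 13 higher and 13 lower against unmodified serum/LIF cells, 24.5% in each direction, near the 18.9% and 21.0% of all tested genes. Stag3, a meiotic cohesin, was among the higher (1.96 ± 0.23), with Tex14 (2.16 ± 0.29) and Brdt (2.48 ± 0.51), and Dppa3 was lower, at 1 and 9 counts against 533 and 377.

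**Figure D5:**
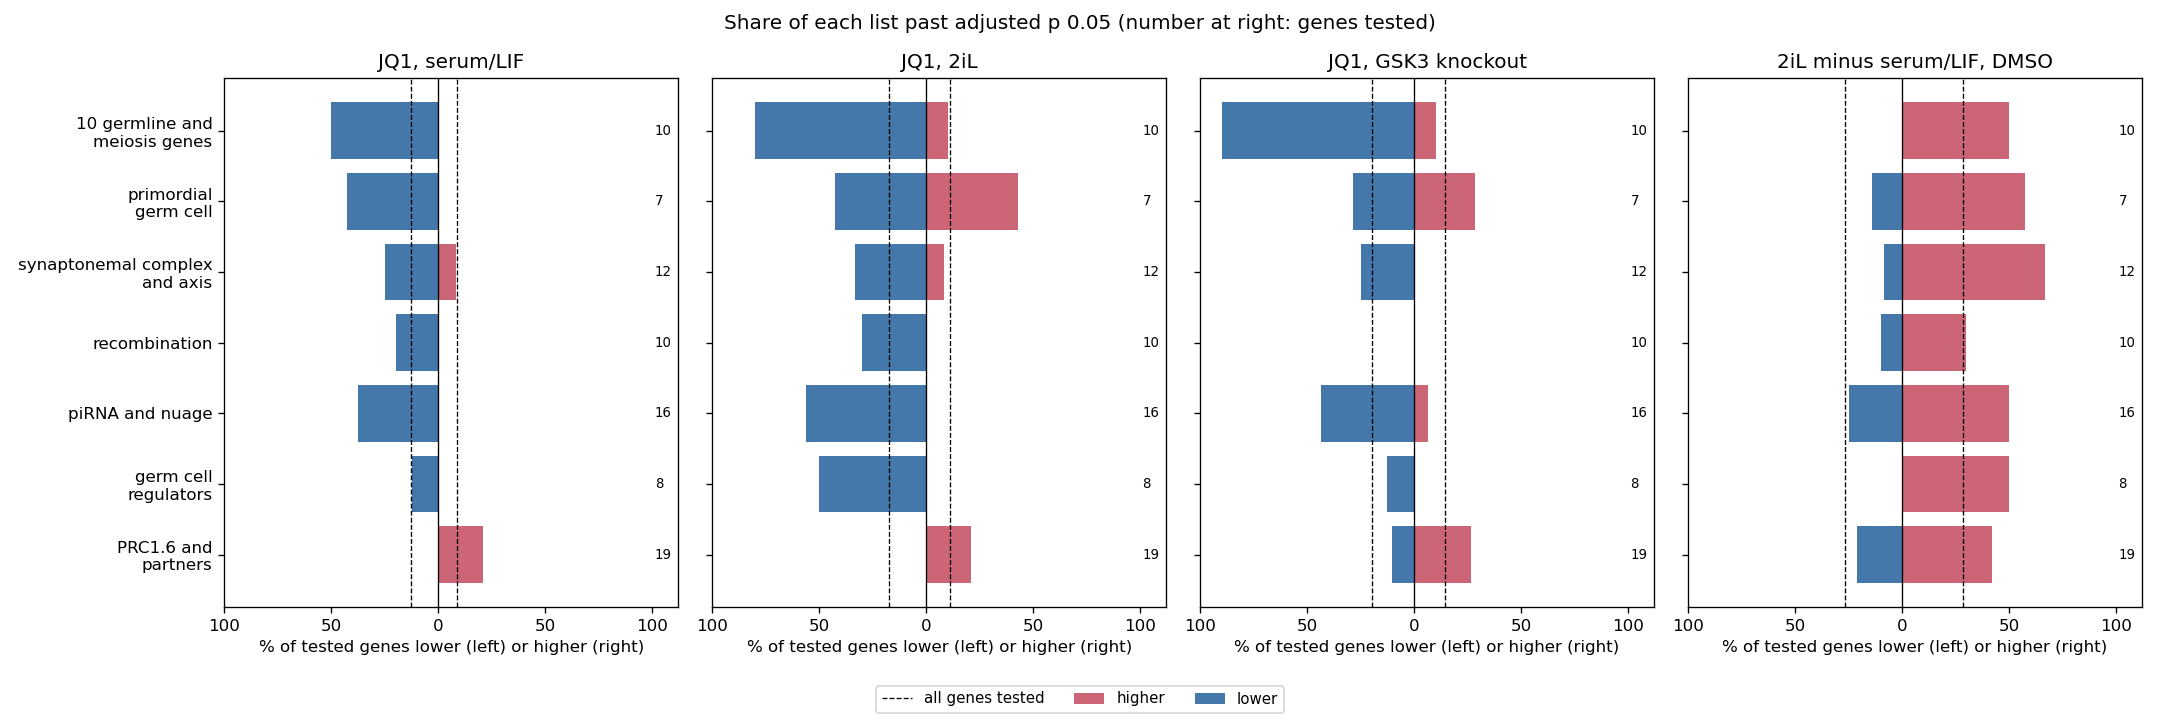
Share of the tested genes of each list that were called lower (left, blue) or higher (right, red), in percent, for JQ1 in serum/LIF, 2iL and the knockout and for 2iL minus serum/LIF with DMSO; the number at the right is the genes tested and dashed lines give the share over all 16987 genes. The 10 germline and meiosis genes have 50%, 80% and 90% lower with JQ1, and the PRC1.6 list has no lower call in the first pair of panels.

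Genes of PRC1.6 and of DNA methylation were read in the same libraries. The second list also holds the demethylating oxidases Tet1, Tet2 and Tet3, so its counts pool genes of opposed function. Both lists are called the repressor lists below for short. Of 19 tested PRC1.6 components and partners, 8 were higher and 4 lower in 2iL than in serum/LIF (42.1% and 21.1%, against 28.3% and 26.5% of all tested genes). With JQ1, 4 were higher and 0 lower in serum/LIF and again 4 and 0 in 2iL (in both, 0 lower at an unadjusted p under 0.05 in edgeR and 0 with DESeq2), and 5 higher and 2 lower in the knockout. The higher shares were 21.1%, 21.1% and 26.3%, against 8.54%, 11.2% and 14.6% of all tested genes. Mga was higher in 2iL (0.75, adjusted p = 0.016) and E2f6 lower (−0.42, 0.013), while Max (−0.06) and Pcgf6 (0.29) were not called. Of the 8 genes of DNA methylation, 3 were higher and 3 lower in 2iL, 37.5% in each direction. Tet2 (2.42 ± 0.24) and Uhrf1 (1.33 ± 0.10) were among the higher. Against unmodified serum/LIF cells both were higher in the knockout too (2.80 ± 0.24 and 1.04 ± 0.10). Dnmt3l, a cofactor of de novo methylation, read 166 and 175 CPM in serum/LIF, 216 and 222 CPM in the knockout and 1.10 and 0.440 CPM in 2iL (−7.84 ± 0.37), and Dnmt3b was lower in 2iL by −3.39 ± 0.14 and in the knockout by −2.13 ± 0.13. With JQ1 in 2iL, Dnmt3l rose (3.83 ± 0.40) to 14.3 and 6.74 CPM, as did Dnmt3b (1.08 ± 0.13), while Dnmt3a fell (−1.04 ± 0.22). With JQ1 in the knockout Dnmt3b rose (0.70 ± 0.13), while Tet2 (−2.37 ± 0.24), Tet1 (−1.90 ± 0.23) and Dnmt3a (−0.84 ± 0.22) fell. Of the 8 genes, 3, 4 and 1 were higher with JQ1 in serum/LIF, 2iL and the knockout (37.5%, 50% and 12.5%). The lower calls were 1, 1 and 3 (12.5%, 12.5% and 37.5%). Of all tested genes 8.54%, 11.2% and 14.6% were higher and 12.8%, 17.3% and 19.5% lower. These transcript levels do not measure methylation or complex binding, and their part in the 10 genes' values was not tested.

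Outside the set, the genes whose log2 profile over the 12 libraries was most like the mean standardised profile of the 10 were Galnt6 (Pearson r = 0.977), Prrt3 (0.976), Rtkn (0.975), Gfpt2 (0.968) and Sh3tc1 (0.967). The 12 libraries are 6 groups of 2, so these values describe the likeness of group patterns. The 10 genes themselves correlated with that mean at 0.178 (Ddx4) to 0.912 (Sohlh2), so it is not a profile that all of them share. Prrt3 was higher in 2iL (3.18 ± 0.25) and lower with JQ1 in serum/LIF, 2iL and the knockout (−1.66 ± 0.29, −2.55 ± 0.24 and −2.60 ± 0.30). Gfpt2 was higher in 2iL by less (0.84 ± 0.15) and was not called with JQ1 in serum/LIF (−0.22 ± 0.15).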

How the data were processed

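Poly(A) RNA was sequenced from 12 libraries of mouse ES cells. The authors deposited, for each library, RSEM expected counts and TPM per gene, per the file headers. Per the submitters' processing notes the build was mm10 and the tools included STAR 2.5.2 and RSEM, with bcl2fastq and DESeq2 1.18.1; the annotation release, the strand setting and filters are not given in the sources used here, and 6.11% to 8.71% of values were not whole. Gene symbols came from GENCODE M21, which matched 52403 of 52550 identifiers.

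Expected counts were rounded and tested with edgeR 4.0.16 in R 4.3.3: filterByExpr (minimum count 10, total 15), TMM scaling, 1 quasi-likelihood fit of all 6 groups with 6 residual degrees of freedom, and glmQLFTest, 2-sided. Genes were called at a Benjamini-Hochberg adjusted p under 0.05 over all 16987 tested genes. CPM are expected counts scaled to the library total, and a count of 0 allows up to 3 counts (0.0616 to 0.168 CPM); such floors cover counting error only. The script was tested on simulated counts. Libraries were treated as unpaired, because the labels do not say whether replicate numbers pair them. Alternatives were DESeq2 1.42.0, RLE scaling, 2 other filters, fits of only the groups compared, a replicate block, totals without mitochondrial genes, a fold threshold and leaving out each library.

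The 10 genes and the lists (primordial germ cell, synaptonemal complex and axis, recombination, piRNA and germ granule, regulators, PRC1.6, DNA methylation, and markers of ES cells, fibroblasts, 2-cell-like cells, testis somatic cells and spermatids) were chosen with earlier results of these data known. From the wider lists the text names some of the 3 largest changes per direction and comparison among called genes with a group mean of at least 1 CPM, the 5 genes most like the mean profile (at least 5 CPM in some group), Gsk3a, Gsk3b, Tuba3b and Taf7. Chpt1, Mga, Max, Pcgf6 and E2f6 were named after their values were seen. Promoters are RefSeq sequences on GRCm38.p6, and 4 list symbols had no match (Six6os1, Iho1, Brme1 and Taf7l2).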

Additional observations from a re-analysis of the deposited data

Results flagged for a closer look

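Among the tests of a difference between JQ1 responses, 3 values for these genes passed the threshold. The log2 response of Sycp3 to JQ1 was −3.70 in 2iL and −1.43 in serum/LIF, a difference of −2.27 ± 0.52 (SE, edgeR adjusted p = 0.028). For Ddx4 the responses were −1.33 and 0.10, a difference of −1.43 ± 0.24 (adjusted p = 0.0048). For Sycp1 the response was −1.85 in the knockout and −0.06 in unmodified cells in serum/LIF, a difference of −1.80 ± 0.40 (adjusted p = 0.025). The Sycp3 and Sycp1 calls were each lost in several alternative fits, as given above, and the Ddx4 call was kept in all. Both knockout DMSO libraries of Sycp1 lay above both unmodified serum/LIF DMSO libraries, while its knockout JQ1 libraries lay below all others. With 2 libraries a group, no library could be tested for standing apart within its group.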

How the results depend on the processing

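Over 1516 alternative values of the log2 fold changes of the 10 genes, 1447 kept their side of the threshold, 52 fell short of it and 17 newly passed it. Direction reversed in 0 where either fit gave a call. A change of sign where neither fit gave a call was counted among the 1447. Calls among the 10 genes, leaving out 1 library at a time, ranged from 3 to 6 for JQ1 in serum/LIF (5 in the full fit), 7 to 9 in 2iL (9), 8 to 10 in the knockout (10), 5 to 6 for 2iL against serum/LIF (5), 0 to 3 for knockout against unmodified (2), 5 to 7 for knockout against 2iL (7), 1 to 2 for the 2iL minus serum/LIF difference of responses (2) and 0 to 1 for the knockout difference (1). In the same order the wider germline lists ranged from 10 to 16, 13 to 29, 8 to 18, 27 to 35, 19 to 28, 26 to 35, 1 to 4 and 0 to 2, and the repressor lists (PRC1.6 and DNA methylation) from 4 to 8, 5 to 10, 5 to 12, 14 to 19, 9 to 11, 7 to 14, 1 to 4 and 0 to 3. Without the low-count filter, 4 of the 10 genes were called for knockout against unmodified and 2 for the knockout difference, and the differences of responses gave 7 and 4 germline and 5 and 5 repressor genes. DESeq2 gave 5 germline and 4 repressor genes for the 2iL difference. Fitting only the groups compared gave 1 of the 10 genes and 1 repressor gene for the 2iL difference, and 3 repressor genes for JQ1 in serum/LIF. RLE scaling and totals without mitochondrial genes each gave 1 repressor gene for the knockout difference. A fold threshold of 1 on the log2 scale left 1, 3, 2, 6 and 2 repressor genes for JQ1 in serum/LIF, 2iL and the knockout, 2iL against serum/LIF and knockout against 2iL. The cause was not tested.

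The labels do not say whether same-numbered libraries were paired, and weak correlations cannot exclude it. Over 15 pairs of groups the correlation of same-numbered deviations ran from −0.186 to 0.185, with 6 above 0.1 and 2 below −0.1. The DMSO and JQ1 groups of one setting gave 0.185 in serum/LIF, 0.118 in 2iL and 0.117 in the knockout. A replicate block gave 2 of the 10 genes, in place of 1, for the knockout difference, adding Ddx4 (adjusted p = 0.042), and called Dazl for the knockout against unmodified cells (0.046). It changed no other call of the 10 genes. Over all genes the block raised the number of calls in every comparison, from 706 to 920 for the 2iL difference and from 742 to 1110 for the knockout difference.

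Counts over all genes moved by more than 1.5 times as follows. JQ1 in serum/LIF gave 3623 calls, and 2245 in the fit of those groups, 1684 past a log2 size of 1 and as few as 1927 without 1 library. The counts past that size were 2389 of 4834 for JQ1 in 2iL, 2475 of 5799 in the knockout, 5374 of 9311 for 2iL, 3491 of 6790 for the knockout and 3780 of 7348 for knockout against 2iL. Leaving out 1 library gave as few as 2530 for JQ1 in 2iL, 3186 in the knockout, and 4512 for the knockout against unmodified. The 2iL difference (706) gave 1478 without the filter, 431 with only its groups and 330 to 784 without 1 library. The knockout difference (742) gave 2011 without the filter, 1303 with DESeq2 and 212 to 1779 without 1 library.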
